A study of Mus musculus with 18 samples.

Results

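The genes described here are 4 receptors, Egfr, Fgfr1, Fgfr2 and Fgfr3, through which cultured neural stem cells (NSCs) receive epidermal growth factor (EGF) and basic fibroblast growth factor (bFGF), and 6 feedback genes of the MAPK pathway, Spry1, Spry2, Spry4, Dusp6, Etv4 and Etv5. They were chosen by name for their place in the pathway, with earlier results of these data known. All 10 were present among the 27997 genes of the deposited table and passed the filter on low values in every comparison. RNA was measured in 18 libraries, which fell into 6 groups of 3 replicates: NSCs and astrocytes of 3 culture lines. The tdTomato line (genotype DNGR-1 +/- Tom+/-) and the EYFP line (DNGR-1 +/- EYFP+/-) came from mouse spinal cord cells that a Cre recombinase driven by Clec9a, the gene of DNGR-1, had marked permanently, and they are called traced below. The hippocampal line (DNGR-1+/+) was derived from Glast-Cre mice with a floxed Huwe1 allele and an EYFP reporter. Traced and hippocampal cultures therefore differed in tissue and genotype at once, and these cannot be told apart. The tdTomato line also differed from the hippocampal line in reporter, whereas the EYFP line and the hippocampal line both carried an EYFP reporter. NSCs were collected on day 4 in a medium with EGF and bFGF, each at 20 ng/ml, heparin and laminin. Astrocytes were collected on day 6 after a change to a medium with BMP4 at 20 ng/ml, for which no EGF or bFGF is named. Added BMP4, withdrawn mitogens and differentiation itself thus changed together and cannot be told apart. Each line was 1 culture line from adult mice, carried over passages, so that p-values measure the spread between cultures and not between animals. In comparisons of origins that spread also holds the difference between the traced lines. In the comparison of fates over all lines it also holds differences between lines in the change.

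EGFR and the FGF receptors are tyrosine kinases that, once bound by ligand, act through adaptor proteins on RAS and, through a chain of kinases, on MEK and ERK, the MAPK cascade. ERK activity induces genes that damp the cascade: the Sprouty proteins (Spry1, Spry2 and Spry4) act between the receptor and MEK, and Dusp6 encodes a phosphatase that removes phosphate from ERK in the cytoplasm. Etv4 and Etv5 encode ETS transcription factors induced by FGF signaling. RNA levels of these feedback genes are widely read as a sign of how active the cascade is, and EGF and FGF are the mitogens with which adult NSCs are kept dividing in culture, whereas BMP4 drives such cells toward astrocytes.

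On GRCm38, the build of the deposited table, Egfr lies at chr11:16752203-16918158 on the plus strand, Fgfr1 at chr8:25513654-25575718 (plus), Fgfr2 at chr7:130162451-133123350 (minus) and Fgfr3 at chr5:33721674-33737068 (plus). Spry1 lies at chr3:37639947-37644598 (plus) and Spry2 at chr14:105891947-105896819 (minus). Dusp6 is found at chr10:99263231-99267489 (plus), Etv4 at chr11:101769742-101785371 (minus) and Etv5 at chr16:22381309-22439719 (minus). All 10 are annotated as protein-coding in GENCODE M21, and the measured values cover their exons. For 4 of them an annotated exon overlaps another gene: Fgfr1 the antisense gene Gm16159, Fgfr2 the same-strand gene Ctbp2, Fgfr3 the unclassified G630022F23Rik and Spry1 the unclassified Gm42922, both on the opposite strand. Whether reads were counted by strand is not given in the sources used here, so that the values of these 4 genes may hold reads of the neighbor.

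RefSeq promoter windows of 300 bases, from 250 before to 50 after a transcription start on GRCm38.p6, were at hand for 7 of the 10 genes, in 9 windows. Because all 6 feedback genes fell between fates, the 250 bases before the start, which hold no annotated exon, of 2 of them, Dusp6 and Spry2, are shown with those of Egfr, which fell, and Fgfr2, which rose. They are Dusp6 chr10:99262981-99263230 (plus), Spry2 chr14:105896820-105897069 (minus), Egfr chr11:16751953-16752202 (plus) and Fgfr2 chr7:130266809-130267058 (minus), written 5′ to 3′ on the strand of the gene. The Fgfr2 stretch belongs to a RefSeq start and lies inside the longer span that GENCODE M21 gives this gene. Capitals mark the short ETS core AGGAAG, which on the opposite strand reads CTTCCT.
Dusp6: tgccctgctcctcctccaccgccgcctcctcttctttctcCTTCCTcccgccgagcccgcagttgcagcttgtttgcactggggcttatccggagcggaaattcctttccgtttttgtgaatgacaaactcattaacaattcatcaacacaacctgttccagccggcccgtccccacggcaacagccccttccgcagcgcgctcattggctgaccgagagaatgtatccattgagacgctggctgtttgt
Spry2: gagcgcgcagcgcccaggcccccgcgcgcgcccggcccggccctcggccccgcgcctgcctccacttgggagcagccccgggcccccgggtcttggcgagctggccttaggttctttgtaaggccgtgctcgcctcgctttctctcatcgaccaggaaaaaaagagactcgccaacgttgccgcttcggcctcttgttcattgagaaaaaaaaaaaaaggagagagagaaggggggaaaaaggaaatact
Egfr: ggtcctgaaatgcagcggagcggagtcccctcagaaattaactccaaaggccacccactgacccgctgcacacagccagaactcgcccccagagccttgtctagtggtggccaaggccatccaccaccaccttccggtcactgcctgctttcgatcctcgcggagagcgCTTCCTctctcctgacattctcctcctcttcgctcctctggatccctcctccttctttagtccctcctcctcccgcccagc
Fgfr2: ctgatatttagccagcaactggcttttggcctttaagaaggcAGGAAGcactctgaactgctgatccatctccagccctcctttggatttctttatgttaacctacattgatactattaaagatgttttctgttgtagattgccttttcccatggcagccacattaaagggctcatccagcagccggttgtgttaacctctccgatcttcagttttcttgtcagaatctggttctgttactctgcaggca
Both strands were searched for AGGAAG, the longer ETS site CCGGAAGT, the AP-1 site TGANTCA and the cAMP response element TGACGTCA. AGGAAG was present in 4 of the 9 windows of these genes, against 35.4% of all 32851 windows in the table. In Dusp6 it began at base -210 on the minus strand, in Egfr at -81 on the minus strand and in Fgfr2 at -208 on the plus strand and again at 38 on the minus strand. In Spry2 there was no match. None of the 9 windows held CCGGAAGT (3.89% of all windows), TGANTCA (7.81%) or TGACGTCA (1.79%). A match is a stretch of letters and not a bound site.

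The values are log2 expression values normalized by the authors. Their form is that of a regularized log, a transform that pulls weakly expressed genes toward their mean and understates their changes, but the sources used here do not name it. The counts and the depth of each library cannot be recovered from them. Replicates of a group differed by a median of 0.07 to 0.13 on the log2 scale over all genes, and no pair held identical values. Mki67, a marker of dividing cells, ranged from 12.75 to 13.07 in NSCs and from 6.42 to 7.15 in astrocytes. Of 8 astrocyte markers 7 were higher in astrocytes and none lower, and the summed level of the list ranged from 15.06 to 16.23 in NSCs and from 17.24 to 17.98 in astrocytes. Nes, the stem cell filament nestin, was lower in traced astrocytes, at 10.74 to 11.19, but lay at 13.43 to 13.80 in hippocampal astrocytes. The summed level of 8 oligodendrocyte lineage markers was 15.79 to 16.09 in NSCs and 13.66 to 15.07 in astrocytes, that of 6 neuron markers 14.45 to 14.62 and 13.91 to 14.34, that of 3 ependymal markers 9.45 to 10.50 and 11.01 to 12.31, and that of 5 mural and fibroblast markers 4.98 to 5.39 and 6.14 to 7.001. None of the 4 microglia markers in the table passed the filter on low values. The part of these shifts in the results below was not tested. Huwe1, floxed in the hippocampal line, lay between 12.97 and 13.38 in all 18 libraries and in each fate the hippocampal range overlapped that of both traced lines. A level over the whole gene does not show whether an exon was removed.

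In astrocytes, the feedback genes and Egfr were far below their NSC levels, Fgfr2 was above it, and Fgfr1 and Fgfr3 stood close to where they had been. Over all lines, 7 of the 10 genes were lower and 1 was higher in astrocytes, and 2 did not pass the test (limma with the line as a covariate, adjusted p under 0.05 over 15448 genes). Of all genes tested, 39.8% were lower and 42.1% higher, so that a call was by itself common in this comparison, and the size of the change is given with each gene. In bulk RNA, fewer cells that express a gene and less RNA per cell cannot be told apart. The median absolute change over all genes tested was 0.50 on the log2 scale.

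Among the receptors, Egfr, the receptor for EGF and TGF-alpha, fell. Its log2 values were 13.65, 13.45 and 13.38 in tdTomato NSCs, 13.97, 13.95 and 13.78 in EYFP NSCs, and 13.81, 13.82 and 13.72 in hippocampal NSCs. The astrocyte values were 11.80, 11.91 and 12.05 in the tdTomato line, 11.92, 11.91 and 12.23 in the EYFP line, and 11.95, 12.14 and 12.26 in the hippocampal line. Every astrocyte library was thus lower than every NSC library, and the 3 astrocyte groups overlapped one another. The change was -1.71 ± 0.06 (SE) on the log2 scale, a 3.26-fold fall (limma, adjusted p = 4.6e-14). Among NSCs the tdTomato line was lowest and did not overlap the other lines.

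Fgfr2, which through alternative exons binds different sets of FGFs, rose in every line. It stood at 9.68, 9.49 and 9.27 in tdTomato NSCs, at 9.95, 10.02 and 9.53 in EYFP NSCs and at 10.17, 9.95 and 9.84 in hippocampal NSCs. Astrocytes reached 11.09, 11.05 and 11.09 in the tdTomato line, 11.15, 11.10 and 11.14 in the EYFP line and 11.24, 11.07 and 11.14 in the hippocampal line. The fates did not overlap, and the 9 astrocyte libraries spread over a narrower range, from 11.05 to 11.24, than the 9 NSC libraries, from 9.27 to 10.17. The rise was 1.35 ± 0.08 (SE), or 2.55-fold (limma, adjusted p = 2.1e-11).

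Fgfr1 and Fgfr3 did not pass the test between fates. Fgfr1, a receptor for bFGF, ranged from 12.51 to 12.81 with a median of 12.61 in the 9 NSC libraries and from 12.46 to 12.90 with a median of 12.66 in the 9 astrocyte libraries. The difference was 0.04, with a 95% interval from -0.06 to 0.14 (limma, adjusted p = 0.43). In the order of the 6 groups, each Fgfr1 level overlapped the next. Fgfr3, which is known as a receptor of astrocytes and their progenitors, differed by 0.01, with an interval from -0.14 to 0.16 (adjusted p = 0.92). All 6 tdTomato libraries lay below the other 12, and within each fate the EYFP libraries lay above the hippocampal ones, although over both fates the ranges of these lines overlapped. The values lay at 11.60, 11.30 and 11.06 in tdTomato NSCs, 12.30, 12.25 and 12.19 in EYFP NSCs, and 11.80, 11.92 and 12.07 in hippocampal NSCs, and at 11.67, 11.35 and 11.53, at 12.32, 12.00 and 12.24, and at 11.79, 11.82 and 11.83 in the astrocytes of the same lines in turn.

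The steepest falls were those of the inhibitors Dusp6, Spry4 and Spry1. Dusp6 was 12.68, 12.75 and 12.81 in tdTomato NSCs, 12.93, 12.86 and 13.08 in EYFP NSCs and 12.26, 12.31 and 12.60 in hippocampal NSCs. In astrocytes it was 8.41, 9.10 and 8.77 in the tdTomato line, 8.15, 7.94 and 7.97 in the EYFP line and 7.84, 8.14 and 8.28 in the hippocampal line. More than 3 log2 units separated the lowest NSC library from the highest astrocyte library. It fell by 4.41 ± 0.12 (SE), which is 21.3-fold and placed Dusp6 at rank 95 of 15448 genes by absolute change (limma, adjusted p = 9.6e-16).

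Spry4 fell by 3.94 ± 0.10 (SE), or 15.4-fold (limma, adjusted p = 1.4e-16). It lay at 12.29, 12.55 and 12.63 in tdTomato NSCs, 12.10, 11.73 and 12.16 in EYFP NSCs and 12.06, 12.05 and 12.14 in hippocampal NSCs, against 8.29, 9.05 and 8.43, 8.15, 7.96 and 7.75, and 7.96, 8.37 and 8.27 in the corresponding astrocytes. The fates were well apart in every line, whereas the EYFP and hippocampal NSCs, and neighboring astrocyte groups, overlapped. Spry1 fell by 3.39 ± 0.10 (SE), or 10.5-fold (adjusted p = 3.0e-15). Its NSC values were 12.21, 12.34 and 12.25 in the tdTomato line, 12.19, 12.08 and 12.13 in the EYFP line and 11.82, 11.95 and 11.79 in the hippocampal line, and its astrocyte values 9.27, 9.67 and 9.20, 8.67, 8.52 and 8.30, and 8.19, 8.27 and 8.18. For Spry1 none of the 6 groups overlapped its neighbor, and in both fates the tdTomato line was highest and the hippocampal line lowest.

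Spry2 changed less than the other Sproutys measured here. It was 12.31, 12.34 and 12.20 in tdTomato NSCs, 13.07, 13.01 and 12.88 in EYFP NSCs and 12.78, 12.96 and 12.85 in hippocampal NSCs. The astrocytes had 10.60, 10.73 and 10.77, then 11.16, 10.91 and 11.16, and 10.87, 11.06 and 11.01. In both fates the tdTomato line was lowest and did not overlap the others, which overlapped each other. Over all lines it fell by 1.79 ± 0.06 (SE), or 3.46-fold (limma, adjusted p = 4.2e-15), with a 95% interval from -1.91 to -1.67 that lay outside the interval of Spry1, from -3.60 to -3.17.

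Of the ETS factors, Etv5 was 14.23, 14.39 and 14.40 in tdTomato NSCs, 13.57, 13.68 and 13.77 in EYFP NSCs and 13.50, 13.50 and 13.47 in hippocampal NSCs. Astrocytes had 12.35, 12.68 and 12.18, 12.08, 11.96 and 11.62, and 11.88, 11.74 and 11.53 in the same order of lines. All astrocyte libraries were lower, and the change was -1.83 ± 0.07 (SE), a 3.56-fold fall (limma, adjusted p = 8.7e-14). Etv4 was lowest in tdTomato NSCs, whose libraries did not overlap those of the other lines, at 11.12, 11.11 and 11.08 in the tdTomato line, 11.46, 11.43 and 11.32 in the EYFP line and 11.35, 11.45 and 11.36 in the hippocampal line. In astrocytes it lay at 9.97, 10.43 and 9.99 in the tdTomato line, 9.65, 9.65 and 9.50 in the EYFP line and 8.85, 9.36 and 9.15 in the hippocampal line, and no group overlapped its neighbor. Over all lines Etv4 fell by 1.68 ± 0.14 (SE), or 3.21-fold (adjusted p = 5.7e-09), with the largest standard error of the 10 genes.

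**Figure D1:**
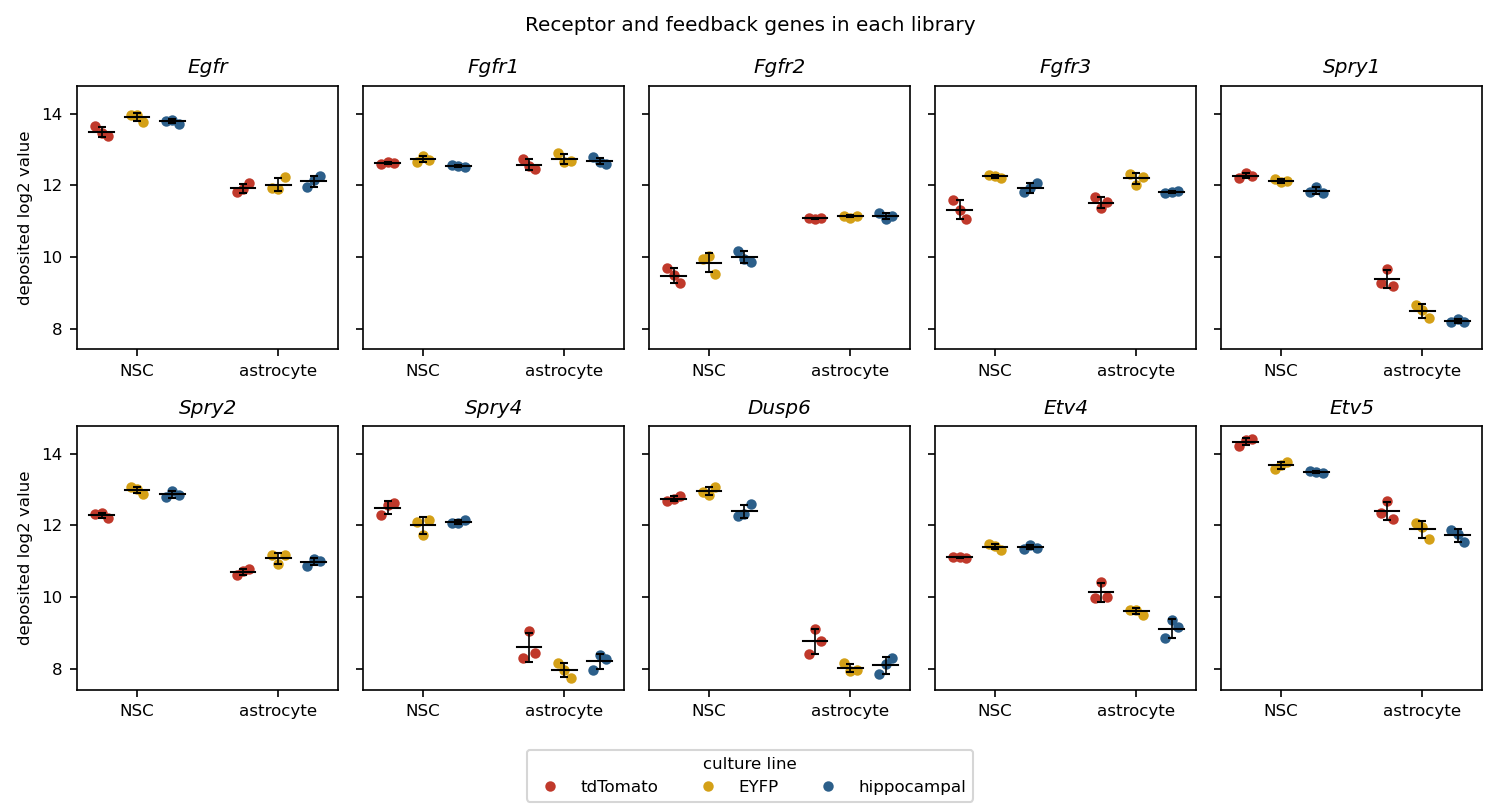
Deposited log2 value of each gene (vertical axis) in NSCs and astrocytes (horizontal axis), with 1 point per library colored by culture line and bars for the mean and SD of the 3 replicates. Dusp6, Spry1 and Spry4 drop from near 12 to near 8, Fgfr2 rises to about 11, and Fgfr1 and Fgfr3 stay level between fates.

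Taken by line, the same 7 genes fell and Fgfr2 rose in each of the 3 lines, tested on its own. In the tdTomato line 7 of the 10 genes were called lower and 1 higher, where 39.5% of all genes were lower and 39.9% higher. The EYFP line had the same counts, against 37.4% lower and 37.5% higher. In the hippocampal line 7 were lower and 2 higher, against 38.2% lower and 39.2% higher. The additional gene was Fgfr1, with a difference of 0.14 ± 0.05 (SE; limma, adjusted p = 0.028), a call that was lost in 7 of 15 alternative analyses, among them those without hippocampal NSC replicate 2 or 3 or hippocampal astrocyte replicate 1. The rise of Fgfr2 was 1.60 in the tdTomato line, 1.29 in the EYFP line and 1.16 in the hippocampal line.

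An interaction term in a fit of all 18 libraries tested whether the change differed between lines. The change of Etv4 was -0.97 in the tdTomato line, -1.80 in the EYFP line and -2.27 in the hippocampal line. The fall was smaller in the tdTomato than in the EYFP line by 0.83 ± 0.16 (SE; limma, adjusted p = 0.0021), and smaller in the mean of the traced lines than in the hippocampal line by 0.88 ± 0.14 (adjusted p = 4.2e-05). Spry1 changed by -2.89, -3.64 and -3.64 in the tdTomato, EYFP and hippocampal lines. For this gene the tdTomato line differed from the EYFP line by 0.75 ± 0.14 (SE; adjusted p = 0.0021). The difference of Spry1 between traced lines and hippocampus was 0.38 ± 0.12 (adjusted p = 0.018), although the EYFP line taken alone fell as far as the hippocampal line. Without hippocampal NSC replicate 2 that call was lost (adjusted p = 0.058).

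Dusp6 changed by -3.99 in the tdTomato line, -4.94 in the EYFP line and -4.30 in the hippocampal line. Its difference between the traced lines was 0.95 ± 0.20 (SE; limma, adjusted p = 0.0041), while the traced mean did not differ from the hippocampal line by the test (-0.16, 95% interval from -0.52 to 0.20). For Spry2 the traced lines differed by 0.33 ± 0.10 (adjusted p = 0.045), a call lost in 14 of 27 alternatives, among them those without any 1 tdTomato NSC replicate, EYFP NSC replicate 1 or 2, hippocampal NSC replicate 3, tdTomato astrocyte replicate 2 or 3, EYFP astrocyte replicate 2 or hippocampal astrocyte replicate 3. Egfr, Fgfr1, Fgfr2, Fgfr3, Spry4 and Etv5 passed neither test. Spry4, for example, differed by 0.14 between traced lines (interval from -0.35 to 0.63) and by -0.09 between origins (-0.51 to 0.34). In all, 4 of 10 genes were called between the traced lines, where 13.3% of all genes were, and 2 of 10 between origins, where 46.2% of all genes were. All 4 calls between the traced lines were feedback genes with a smaller fall in the tdTomato line.

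**Figure D2:**
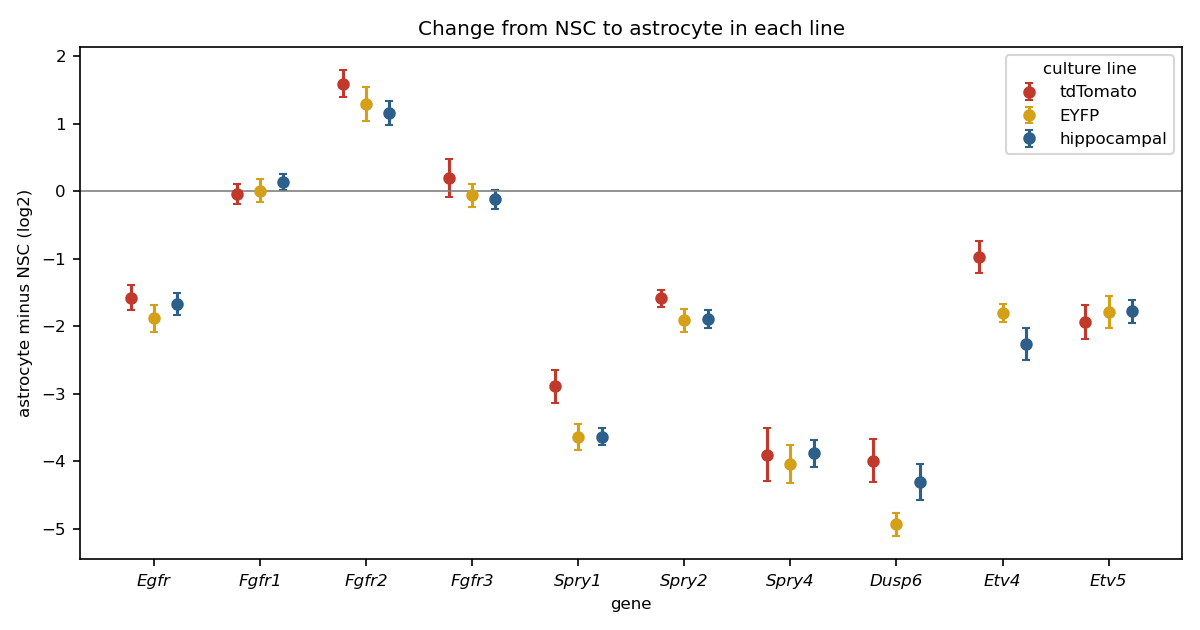
Change from NSC to astrocyte (vertical axis, log2 difference) of each gene (horizontal axis) in each culture line, as the estimate of the test within that line with its 95% interval. Spry1, Dusp6 and Etv4 differ between lines, Etv4 from -0.97 in the tdTomato line to -2.27 in the hippocampal line, while Spry4 and Etv5 lie together.

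Averaged over the 6 feedback genes, as deviations from each gene's mean over all libraries, NSCs lay at 1.49 ± 0.06 (SD, n = 3) in the tdTomato line, 1.48 ± 0.05 in the EYFP line and 1.30 ± 0.04 in the hippocampal line. Astrocytes lay at -1.05 ± 0.25, -1.54 ± 0.13 and -1.66 ± 0.11. Over the 15 pairs of these genes, Pearson's r had a median of -0.02 in NSCs (-0.94 to 0.98) and 0.74 in astrocytes (-0.72 to 0.95). The NSC means thus average over genes that did not vary together. The tdTomato astrocytes were the highest and the most spread, and all 3 of their libraries were above those of the other lines. Within them replicate 2 had the highest value of Spry1, Spry4, Dusp6, Etv4 and Etv5. Gfap, the astrocyte filament protein, was 15.22, 14.69 and 15.52 in tdTomato astrocytes, lowest in replicate 2, against 15.85, 15.25 and 15.92 in EYFP astrocytes and 16.37, 16.17 and 16.66 in hippocampal astrocytes. Of the 8 astrocyte markers, S100b and Slc1a2 were higher in tdTomato than in EYFP astrocytes (by 0.50 and 0.28), Aqp4 was lower (-1.83) and the other 5 were not called, Gfap among them (-0.53; limma, adjusted p = 0.20). Against hippocampal astrocytes, the traced ones had 1 marker higher and 4 lower, and Gfap was among the lower (-0.99). The part of the extent of differentiation in the line differences was not tested.

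The study compared traced spinal cord cells with the hippocampal line as a reference for NSCs. In NSCs, 2 of the 10 genes were called, both higher in the traced libraries (6 against 3), where 10.6% of all genes were higher and 8.81% lower. Spry1 was higher by 0.35 ± 0.06 (SE; limma, adjusted p = 0.0029) and Dusp6 by 0.46 ± 0.10 (adjusted p = 0.0083), and for both the traced and hippocampal NSC libraries did not overlap. Without hippocampal NSC replicate 1 the call of Dusp6 was lost (adjusted p = 0.052). The 4 receptors did not pass: Egfr differed by -0.09 (95% interval from -0.37 to 0.20), Fgfr1 by 0.14 (0.03 to 0.25), Fgfr2 by -0.33 (-0.68 to 0.02) and Fgfr3 by -0.15 (-0.77 to 0.47). Spry2 at -0.23, Spry4 at 0.16 and Etv4 at -0.13 were also not called, and Etv5, at 0.51, missed the threshold (adjusted p = 0.094) with its traced lines far apart. In the same NSC libraries 5 of the 8 astrocyte markers were lower in the traced cultures and none was higher (median -0.69). The summed level of these markers ranged from 15.06 to 15.40 in tdTomato, 15.63 to 15.85 in EYFP and 16.21 to 16.23 in hippocampal NSCs, and its part in the results was not tested.

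In astrocytes, Spry1 and Etv4 were called, again both higher in the traced libraries, where 24.1% of all genes were higher and 27.9% lower. Etv4 was higher by 0.75 ± 0.19 (SE; limma, adjusted p = 0.0067), and the highest hippocampal library, at 9.36, was under the lowest traced one, at 9.50. Spry1 was higher by 0.72 ± 0.26 (adjusted p = 0.039), a call that was lost in 8 of 18 alternatives, among them those without tdTomato astrocyte replicate 1 or 3 or any 1 hippocampal astrocyte replicate. The receptors differed by less than 0.15 in either direction, with the widest interval for Fgfr3, from -0.39 to 0.47. Dusp6 differed by 0.30 (interval from -0.24 to 0.84), Spry4 by 0.07 (-0.45 to 0.59), Spry2 by -0.09 (-0.36 to 0.18) and Etv5 by 0.43 (0.01 to 0.85; adjusted p = 0.078). The comparisons in NSCs and astrocytes share no library but rest on the same culture lines, so that they are not independent.

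The traced lines, both taken from spinal cord, differed from each other in receptors as well as feedback genes. In NSCs 7 of the 10 were called between tdTomato and EYFP (3 against 3), where 33.2% of all genes were called in either direction. Fgfr3 was lower in the tdTomato line by 0.93 ± 0.11 (SE; limma, adjusted p = 0.00072), Spry2 by 0.70 ± 0.06 (adjusted p = 0.00011), Egfr by 0.40 ± 0.08 (0.0057), Etv4 by 0.30 ± 0.04 (0.0018) and Dusp6 by 0.21 ± 0.06 (0.031). Etv5 was higher in the tdTomato line by 0.67 ± 0.06 (adjusted p = 0.00026) and Spry4 by 0.49 ± 0.12 (0.016). The feedback genes therefore did not differ in 1 direction between the traced NSCs. The call of Dusp6 was lost in 6 of 15 alternatives, among them those without tdTomato NSC replicate 1 or 2 or EYFP NSC replicate 1, and that of Spry4 in 4, among them those without tdTomato NSC replicate 2 or 3. That of Egfr was lost without a filter on low values (adjusted p = 0.052). Between the same NSCs, 5 of 8 astrocyte markers were lower and 1 higher in the tdTomato line (median -0.55), and 3 of 7 NSC markers were lower and 2 higher. Their part in these differences was not tested.

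In astrocytes 6 of the 10 genes were called between the traced lines, against 11.2% of all genes. Fgfr3 and Spry2 were again lower in the tdTomato line, by 0.67 ± 0.10 (SE; limma, adjusted p = 0.0026) and 0.38 ± 0.08 (0.015). Spry1 was higher by 0.88 ± 0.13 (adjusted p = 0.0035), Dusp6 by 0.74 ± 0.15 (0.016), Etv4 by 0.53 ± 0.12 (0.019) and Etv5 by 0.52 ± 0.14 (0.048), and Spry4, higher by 0.63, missed the threshold (0.065). Dusp6 and Etv4 were thus called lower in tdTomato NSCs and higher in tdTomato astrocytes. The calls here depended on single libraries: without EYFP astrocyte replicate 3, 2 of the 6 calls were left, and without EYFP astrocyte replicate 1, 3. The calls of Fgfr3 and Spry1 were kept in all 15 alternatives. Those of Spry2 and Etv4 were each lost in 4, without a filter on low values, without a trend and without EYFP astrocyte replicate 1 or 3 (adjusted p up to 0.093 and 0.12). The call of Dusp6 was also lost in 4, without a filter, without a trend and without tdTomato astrocyte replicate 3 or EYFP astrocyte replicate 3, and that of Etv5 in 9 of 15 alternatives, among them those without tdTomato astrocyte replicate 1 or 2 or any 1 EYFP astrocyte replicate. Egfr, called in NSCs, differed by -0.10 in astrocytes (95% interval from -0.31 to 0.12), and the test of whether its change differed between the lines was not passed (adjusted p = 0.14).

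**Figure D3:**
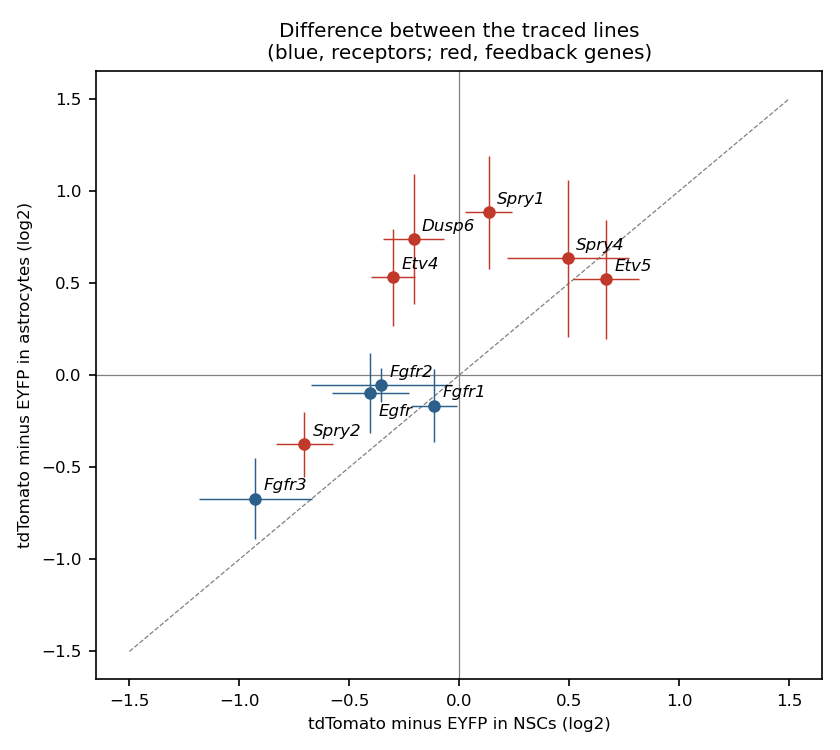
Difference between the tdTomato and EYFP lines in NSCs (horizontal axis, log2) and in astrocytes (vertical axis, log2) for each gene, with 95% intervals, receptors in blue and feedback genes in red; the dashed line marks equal differences. Fgfr3 and Spry2 are lower in the tdTomato line in both fates, whereas Dusp6 and Etv4 lie below 0 in NSCs and above 0 in astrocytes.

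The other genes of the pathway were counted over all lines from lists drawn up by role. Of all genes tested, 42.1% were higher and 39.8% lower in astrocytes, so that a call was by itself common. Of 6 further EGF and FGF receptors, 3 passed the filter on low values and 1 was called, Erbb4, a receptor for neuregulins, which rose by 1.02 ± 0.11 (SE; limma, adjusted p = 8.5e-08). Of 11 EGF family ligands 9 were tested, of which 6 were higher and 2 lower in astrocytes (median 0.39). The neuregulin Nrg2 rose by 1.41, Tgfa, a ligand of EGFR, by 1.20 and Hbegf, another, by 0.39. Of 18 FGF ligands only 5 were tested, of which 3 were higher and 1 lower (median 0.63). Fgf2, the gene of bFGF itself, rose by 2.21 ± 0.18 (adjusted p = 2.3e-09), from a mean of 6.99 ± 0.36 (SD, n = 9) in NSCs to 9.20 ± 0.80 in astrocytes.

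Neither the adaptors nor the core from RAS to ERK moved in 1 direction. The shares over all genes tested were 42.1% higher and 39.8% lower. Of 12 adaptors 5 were higher and 5 lower (median -0.03), among them Shc4 at -1.94 and Shc3 at -1.73, which bind phosphorylated receptors, and Frs2, the docking protein of the FGF receptors, at 0.71 and Gab1 at 0.65. Of 12 genes of the core from RAS to ERK 5 were higher and 6 lower (median -0.08). Ksr1, a scaffold of the cascade, rose by 1.03 and Mapk3, which encodes ERK1, by 0.98, whereas Map2k2, which encodes MEK2, fell by 0.44. The median change over all genes tested was 0.02.

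Among further feedback inhibitors and ERK-responsive genes most calls were lower, where 39.8% of all genes tested were lower and 42.1% higher. Of 16 other inhibitors 14 were tested, of which 9 were lower and 3 higher (median -0.41). Dusp4, a nuclear ERK phosphatase, fell by 2.18 ± 0.13 (SE; limma, adjusted p = 5.3e-11), Spred1, a Sprouty-related inhibitor, by 1.01 and Dusp7, a cytoplasmic ERK phosphatase, by 0.86, while Nf1, a GTPase-activating protein for RAS, rose by 0.62. Of 17 ERK-responsive genes 13 were lower and 2 higher (median -1.40). Fosb fell by 4.35 ± 0.25 (adjusted p = 1.5e-11), and the changes were -3.22 for the cell cycle gene Ccnd1, -2.76 for the immediate early gene Egr2 and -2.44 for the ETS factor Etv1. As a check of the BMP4 treatment, all 12 BMP targets were higher in astrocytes (median 2.38), among them Id4 by 4.33, the BMP antagonist Nog by 3.65, Smad9 by 3.59 and Smad6 by 3.55. Many ERK-responsive genes respond to other signals too, and the change of Mki67, at -6.21, took place in the same libraries, and its part in these counts was not tested.

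**Figure D4:**
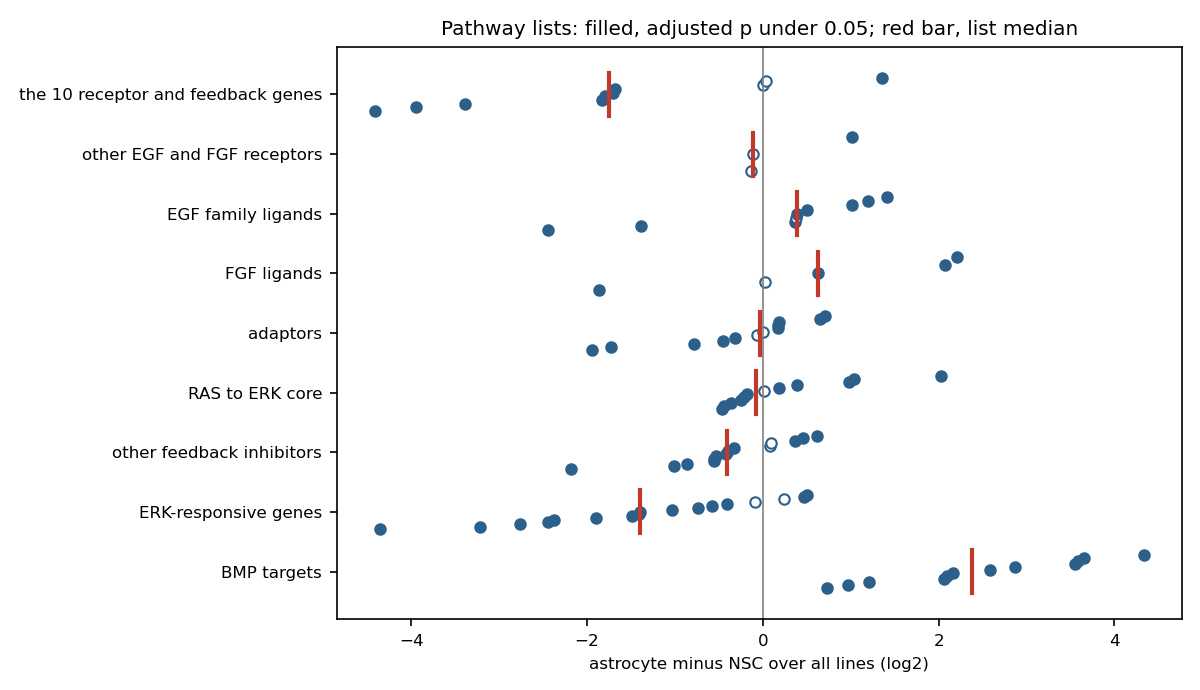
Change from NSC to astrocyte over all lines (horizontal axis, log2 difference) of each tested gene in each list (vertical axis); filled points passed the test, open points did not, and red bars are list medians. All 12 BMP targets lie to the right of 0, while 13 of 17 ERK-responsive genes passed the test to the left of it.

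The genes most like each pattern were found by Pearson's r over the 18 libraries among 12000 genes, as a description. For the mean of the 6 feedback genes these were Peli1 (r = 0.994), Cit (0.994), Mybl2 (0.994), Eml4 (0.993) and Cenpf (0.993). All of these separate the fates, as the feedback genes do. Egfr was followed most closely by Sox3 (0.993) and Zfp184 (0.989), and Fgfr2 by Abca1 (0.994) and Kif1b (0.993). Fgfr3, whose tdTomato libraries lay apart, was most like Sp9 (0.889) and Lrrc8d (0.886), and Fgfr1, which varied little, most like Pex14 (0.862) and Zfp707 (0.786).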

How the data were processed

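RNA of adherent mouse NSCs and of astrocytes differentiated from them was sequenced, with 3 replicates in each of 6 groups. Per the labels, reads were trimmed with Trimmomatic (version 0.36), aligned with STAR (version 2.5.2), quantified per gene with RSEM (version 1.3.0) and normalized with DESeq2 (version 1.18.1) in R 3.4.3, on GRCm38. The labels and the paper name different library kits, and the strand setting of the counting is not given in the sources used here. The authors deposited log2 values for 27997 genes, of which 29.4% are below 0. Their form is that of a regularized log, a transform not named in the sources used here. That transform would shrink weakly expressed genes. No depth, counting error or true zero can be given. All columns matched a sample by label, and 27887 genes had a symbol.

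The values as deposited were entered into limma (version 3.58.1; R version 4.3.3), with the prior variance following a trend on the mean level. Genes were kept where 3 of the libraries compared reached 3.32 on the log2 scale (10 on the linear one). P-values were adjusted by Benjamini-Hochberg over all genes tested, with a threshold of 0.05, and errors of differences are standard errors. Fates were compared in a fit of every library that included the line, and within each line, origins and traced lines within each fate, and differences in change as interactions over the 6 groups. The scripts were tested on simulated data.

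The 10 genes, the pathway lists and the markers were chosen with earlier results of these data known. All 10 genes are named. Of each other list at most 4 genes are named, those with the largest change between fates that passed the threshold and reached 100 on the linear scale in the higher fate. A gene that this rule would name is not reported here. Genes alike in pattern are the 5 with the highest r to the feedback mean and the 2 highest for each receptor. Coordinates come from GENCODE M21 on GRCm38 and promoters from RefSeq on GRCm38.p6, without Fgfr1, Spry4 and Etv4. Alternatives were no filter or a filter at 100, pseudocounts of 1 and 10, quantile normalization or median centring, no trend in limma, other libraries in the fit, the replicate number as a block and omission of each library.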

Additional observations from a re-analysis of the deposited data

Results flagged for a closer look

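The change from NSC to astrocyte differed between culture lines, by a test of the difference itself, for 4 of the 6 feedback genes and for none of the 4 receptors. Between the traced lines, tdTomato minus EYFP, the change differed by 0.95 on the log2 scale for Dusp6 (limma, adjusted p = 0.0041), by 0.83 for Etv4 (0.0021), by 0.75 for Spry1 (0.0021) and by 0.33 for Spry2 (0.045, a call lost in 14 of 27 alternatives), each with the smaller fall in the tdTomato line. Between the mean of the traced lines and the hippocampal line it differed by 0.88 for Etv4 (limma, adjusted p = 4.2e-05) and by 0.38 for Spry1 (0.018). Etv4 fell less in both traced lines, whereas Spry1 fell by 3.64 in both the EYFP and the hippocampal line, and its call was lost without hippocampal NSC replicate 2 (adjusted p = 0.058). Of all genes tested, 13.3% were called in the first of these tests and 46.2% in the second. In the first, Egfr and Fgfr2 each gained a call in 1 of 27 alternatives. In the second, Fgfr2 gained one in 3 of 27 and Fgfr1 in 1. Whether feedback genes and receptors differ in this respect was not tested. The tdTomato astrocytes held the highest mean of the feedback genes and the lowest mean of Gfap of the 3 lines, with a Gfap range that overlapped that of the EYFP astrocytes. Of 8 astrocyte markers, 2 were higher and 1 lower in tdTomato than in EYFP astrocytes. Their part in these differences was not tested.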

How the results depend on the processing

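Of 1920 values of the 10 genes under the alternatives, 1827 kept their side of the threshold and, where called, their direction, among them 28 uncalled values whose sign changed, while 63 lost their call, 30 gained one and none that was called changed sign. The counts of called genes between fates were 8 under every alternative over all lines and in the EYFP line, and 8 to 9 in the tdTomato line and 8 to 10 in the hippocampal line with 1 library left out. Between traced and hippocampal NSCs, 2 genes were called, 5 when the spread was estimated over all 6 groups, and 1 to 3 with 1 library left out (1 without hippocampal NSC replicate 1). Between traced and hippocampal astrocytes, 2 were called, 1 without a filter on low values or without a trend, 4 with the spread over all groups, and 1 to 4 with 1 library left out. Between tdTomato and EYFP NSCs, 7 were called, 4 without a filter, and 5 to 8 with 1 library left out. Between the traced astrocytes, 6 were called, 2 without a filter or without a trend, and 2 to 6 with 1 library left out. The interaction with origin had 2 calls, and 1 to 3 with 1 library left out, and that with the traced line 4, and 3 to 5. The cause of these shifts was not tested. Over all genes, 2822 were called between traced and hippocampal NSCs, between 1657 (1 library left out) and 4864 (spread over all groups). Between tdTomato and EYFP, 4748 were called in NSCs, between 2719 and 5230, and 1641 in astrocytes, between 936 and 3049. For the interaction with the traced line, 2060 were called, and 1317 to 2493 with 1 library left out.

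With the replicate number as a block, 8 genes were called between fates over all lines, 2 between origins in each fate, 9 between the traced NSCs, 8 between the traced astrocytes, and 3 in either interaction. Between traced and hippocampal astrocytes the pair of called genes was not the same, since Spry1 lost its call (adjusted p = 0.065) and Egfr gained one (0.039). The block also gave calls to Fgfr1 (0.043) and Fgfr2 (0.0048) between the traced NSCs, to Fgfr1 and Spry4 (both 0.011) between the traced astrocytes and to Fgfr2 in the interaction with origin (0.045), and took that of Spry2 in the interaction with the traced line (0.055). Which number stands for which passage is not stated. Same-numbered libraries correlated, as deviations from their group means, at a mean of 0.11 within a fate (18 pairs, 0.01 to 0.31), other-numbered ones at a mean of -0.05 (36 pairs, -0.35 to 0.12), and same-numbered libraries at -0.02 between the fates of a line (9 pairs, -0.08 to 0.03). The libraries were not taken as paired. Within a fate every same-numbered pair was positive, and calls within a fate depend on this choice. The depth behind the values is unknown.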

Other observations

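Other genes of the pathway also differed between the traced NSCs. Of 17 ERK-responsive genes, 9 were lower and 2 higher in tdTomato than in EYFP NSCs (median -0.42), where 33.2% of all genes tested were called in either direction. Fosb, an immediate early gene, was lower by 1.53 ± 0.21 (SE; limma, adjusted p = 0.0013) and Egr2, another, by 1.17 ± 0.18 (0.0019), while Ccnd1 was higher by 0.87 ± 0.11 (0.0010). Of 14 other feedback inhibitors tested, 7 were lower and 1, the ERK phosphatase Dusp4, was higher (median -0.25), Dusp4 by 1.44 ± 0.09 (limma, adjusted p = 4.0e-05). In the same NSCs, 5 of 8 astrocyte markers were lower and 1 higher in the tdTomato line, and 3 of 7 NSC markers were lower and 2 higher, and their part in these counts was not tested. In astrocytes 2 of the 17 genes were called, both higher in the tdTomato line, against 11.2% of all genes.

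In astrocytes, 8 of the 12 genes of the core from RAS to ERK were lower in the traced than in the hippocampal libraries and none was higher (median -0.27), where 27.9% of all genes tested were lower. Ksr1 was lower by 0.51 ± 0.09 (SE; limma, adjusted p = 0.00059) and Mapk3 by 0.29 ± 0.09 (0.018). In the same comparison, 1 of 8 astrocyte markers was higher and 4 were lower, 4 of 5 neuron markers tested were higher and 1 lower, 4 of 6 oligodendrocyte lineage markers tested were higher and 2 lower, and both ependymal markers tested were lower. Their part in the counts of the core was not tested.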
